A study of Mus musculus with 6 samples.

Results

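Primitive endoderm is the inner layer of the blastocyst that faces the blastocoel, and 9 genes of it were followed here in the RNA of mouse blastocysts. These genes were *Gata6*, *Gata4*, *Sox7*, *Hnf4a*, *Pdgfra*, *Sparc*, *Dab2*, *Cubn* and *Amn*, taken by symbol from 23420 gene rows in each of 2 count tables. All 9 had a row in both tables. One table held 3 libraries of blastocysts flushed from the uterus, and the other held 3 libraries of the luminal layer of the uterus cut out by laser microdissection, which serve as background. Collection took place on day 4 of pregnancy at 8 pm, before blastocysts attach.

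The control females were labelled Lif-floxed/floxed and received PBS. The eKO females were labelled Lif-floxed/floxed Ltf-Cre/+ and also received PBS. The rescue group had the eKO genotype and received recombinant Lif (rLif), 20 µg per head at 10 am and again at 6 pm, 2 h before collection. Lif (leukemia inhibitory factor) is a cytokine that signals through Jak and Stat3. Cre driven by the *Ltf* promoter deletes the gene in the uterine epithelium and leaves it in the stroma. The embryos of all 3 groups were labelled Lif-floxed/+, that is with 1 floxed allele. By the labels the groups thus differed in the mother and not in the embryo's own *Lif* alleles. The embryo label does not record Cre, which eKO females carry. The comparison therefore asked which blastocyst transcripts differed when maternal epithelial Lif was missing or was supplied from outside. Each group was 1 library, made from pooled blastocysts or pooled luminal RNA. There was no replicate, the spread between litters is unknown, and no p-value is given.

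In the inner cell mass, cells that receive strong FGF signals through the ERK kinases keep the transcription factor *Gata6* and turn off the epiblast factor *Nanog*. *Gata6* is followed by *Sox17*, *Gata4* and *Sox7* as the cells mature, and the receptor *Pdgfra* supports their survival. The mature layer sorts to the surface, becomes polar with the help of the adaptor *Dab2*, lays down a basement membrane and takes up nutrients through the cubilin and amnionless receptor. Its descendants are visceral endoderm, a secretory and absorptive epithelium that later expresses *Hnf4a*, and parietal endoderm, a matrix-rich migratory layer that expresses *Sparc* strongly. Several members have uses elsewhere: *Sox7* in endothelium, *Pdgfra* in mesenchyme, *Dab2* and *Sparc* in many tissues.

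Blastocyst libraries held 18996158 to 19638852 counts and luminal libraries 23850565 to 28460465. The blastocyst label held up against its markers: 9 of 9 epiblast and 10 of 10 trophectoderm markers had at least 3 counts in every blastocyst library, whereas 5 or 6 of the 9 epiblast markers were at 0 in each luminal library. *Lif* itself had 1447 counts in blastocysts of control females, 1736 in those of eKO females and 1250 in those of rLif-treated females. The luminal count was 0 where the label says control, 28 where it says eKO and 0 where it says rLif-treated eKO. In the luminal library labelled control, 3 counts, the limit used for a count of 0, correspond to 0.119 CPM (counts scaled to a common library size). The order of the luminal counts thus goes against the labels, at no more than 0.975 CPM. The paper places Lif before attachment in the uterine glands, so counts of the luminal layer are a weak check of the labels. Luminal libraries are named by label below. Markers of maternal stroma, smooth muscle and immune cells were present at low level in the blastocyst libraries. The summed level of 8 stroma markers, in TPM (a level per exon length, scaled to a common sum), was 22.7, 14.9 and 10.5 in blastocysts of control, eKO and rLif-treated females, against 368 to 545 in the luminal libraries. The 9 luminal epithelium markers were not all at low level. Their median was 30.8, 35.9 and 21.1 TPM in blastocysts, against 178 to 200 TPM in the luminal libraries. Among them, *Krt7*, a keratin that trophectoderm also expresses, had 2268, 1556 and 1102 counts in blastocysts, *Calb1* had 49, 201 and 18, *Ovgp1* had 18, 110 and 19, and *Ltf* had 3, 11 and 3. Smooth muscle markers summed to 4.74, 5.14 and 3.26 TPM, immune markers to 9.44, 13.3 and 8.74 TPM, and endothelium markers to 46.4, 47.6 and 63.9 TPM, nearly all from *Pecam1*, with *Emcn* at 0 in all 3 libraries.

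The members showed unequal patterns. *Cubn* and *Amn*, the 2 subunits of the cubilin receptor, fell in blastocysts from eKO females and were lower still in value after rLif. *Sox7* fell after rLif. The early lineage genes *Gata6*, *Gata4* and *Pdgfra*, together with *Hnf4a*, *Dab2* and *Sparc*, differed by less than 2-fold in all 3 blastocyst comparisons. In the following, a gene was called when the exact 95% interval of the ratio of its scaled counts in 2 libraries lay wholly beyond 2-fold. That rule covers counting error only and compares 2 libraries, not 2 conditions.

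The stretches of 250 bases before the annotated start of *Cubn*, *Amn* and *Dab2* are shown because *Cubn* and *Amn* moved together while *Dab2*, an adaptor of the same uptake route, did not pass 2-fold. They were read from RefSeq on GRCm38.p6, 5′ to 3′ on the strand of the gene: *Cubn* at chr2:13491877-13492126 on the minus strand, *Amn* at chr12:111270846-111271095 on the plus strand and *Dab2* at chr15:6299539-6299788 on the plus strand. Capitals mark letters that match a GATA factor motif (GATA with A or T before it and A or G after it) or a Stat motif (TTC and GAA with 3 or 4 bases between them), each searched on both strands.

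*Cubn*: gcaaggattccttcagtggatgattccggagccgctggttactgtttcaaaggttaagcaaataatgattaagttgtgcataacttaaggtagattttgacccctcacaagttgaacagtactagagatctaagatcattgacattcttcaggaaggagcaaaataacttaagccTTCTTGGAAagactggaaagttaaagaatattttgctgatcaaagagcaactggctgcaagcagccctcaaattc
*Amn*: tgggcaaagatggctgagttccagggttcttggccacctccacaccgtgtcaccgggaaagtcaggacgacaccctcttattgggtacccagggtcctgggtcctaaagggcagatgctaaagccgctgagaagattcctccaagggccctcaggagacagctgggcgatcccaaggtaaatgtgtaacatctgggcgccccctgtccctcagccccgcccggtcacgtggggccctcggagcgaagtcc
*Dab2*: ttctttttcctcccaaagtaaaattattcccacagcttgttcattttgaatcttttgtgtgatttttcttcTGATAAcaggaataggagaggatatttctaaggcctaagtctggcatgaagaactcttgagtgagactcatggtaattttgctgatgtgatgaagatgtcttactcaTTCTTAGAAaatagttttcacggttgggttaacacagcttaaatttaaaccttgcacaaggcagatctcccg

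The *Cubn* stretch held Stat letters 75 bases before the start and no GATA letters. Bases just after the start were found in transcripts of another annotation, GENCODE, for *Amn* and *Dab2* but not for *Cubn*. The *Cubn* distance thus rests on the RefSeq start alone. The *Amn* stretch held neither motif. The upstream *Dab2* start had GATA letters at 179 bases and Stat letters at 72 bases before it, and the stretch before a second annotated *Dab2* start had neither. RefSeq promoters were at hand for 6 of the 9 members, with 8 starts in all. Of these 6 members, 2 (*Dab2* and *Hnf4a*) held GATA letters, which 26.6% of 32817 promoters held, and 2 (*Cubn* and *Dab2*) held Stat letters, which 12.4% held. These matches describe letters and are not evidence of binding. *Gata6*, *Gata4* and *Sox7* have no sequence here.

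**Figure D1:**
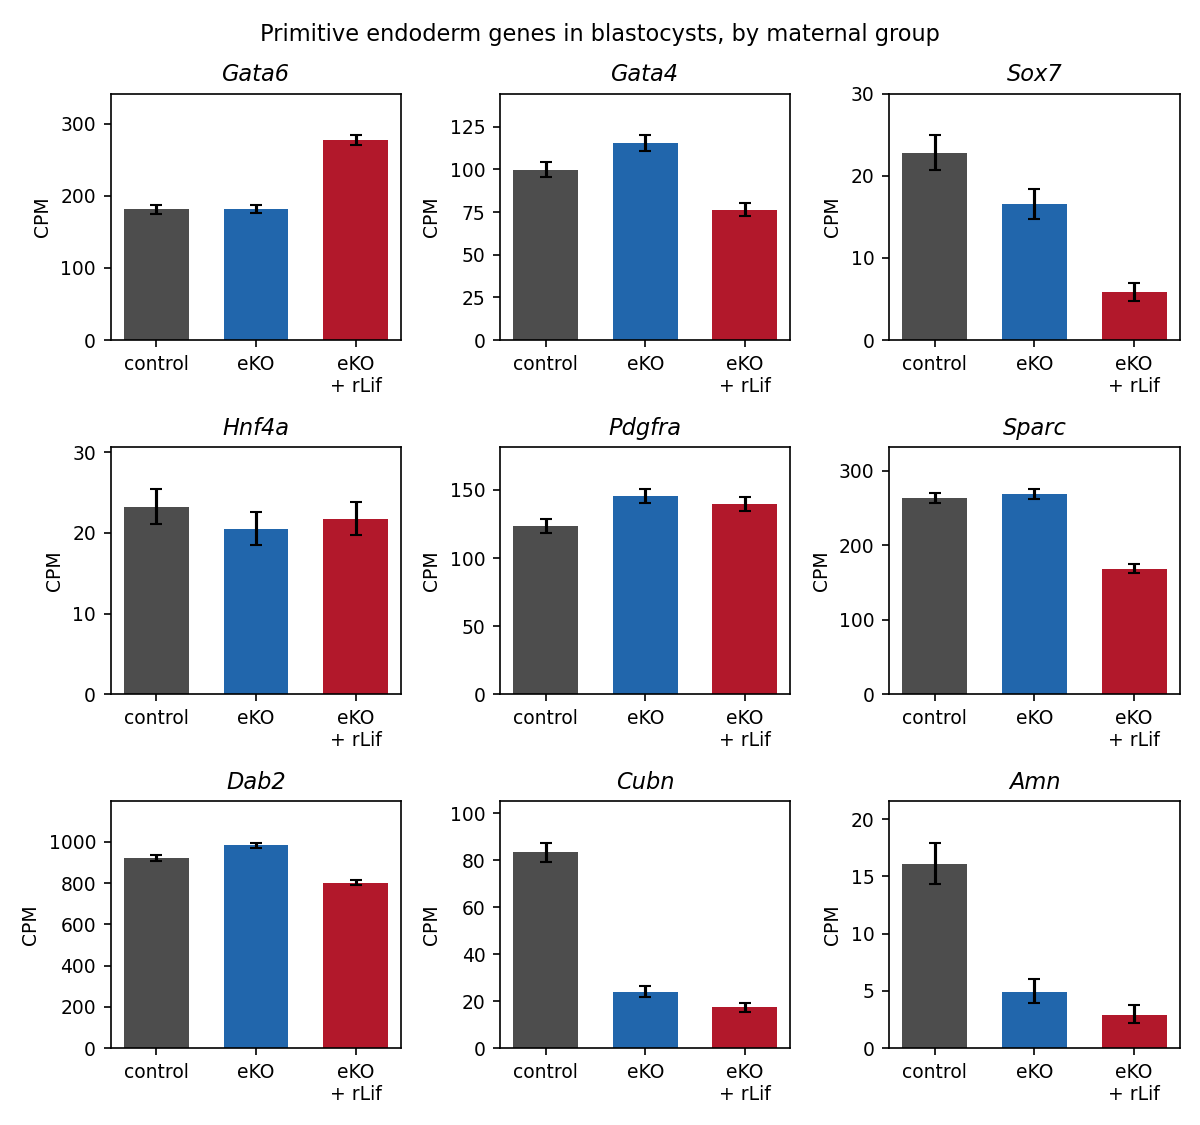
Level of each of the 9 genes in blastocysts (vertical axes, CPM with scaled library sizes, from 0) from control, eKO and rLif-treated eKO females (1 library each). Error bars are exact 95% Poisson intervals for counting error. *Cubn* and *Amn* have their tallest bar in the control library, *Sox7* its shortest bar (5.81 CPM) in the rLif library, and *Gata6* its tallest bar (277 CPM) in the rLif library.

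Among the transcription factors, *Gata6* stood at 181 CPM in blastocysts from control females, 181 CPM in those from eKO females and 277 CPM in those from rLif-treated females. *Gata6* is the factor that starts the lineage. Its log2 ratio was 0.0023 (interval -0.066 to 0.070) for eKO against control, and 0.61 (0.55 to 0.67) for rLif-treated eKO against eKO. The value with rLif lay above both others, and the ratio stayed inside the 2-fold limit. *Gata6* (chromosome 18, 11052510 to 11085635, plus strand) shares exon positions with an antisense gene, *1010001N08Rik*, and since the strand setting of the counting is not stated its count is uncertain to that extent.

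*Gata4*, the GATA factor that follows *Gata6*, had 99.9, 116 and 76.3 CPM in the same order of groups. Its log2 ratio was 0.21 (0.12 to 0.30) for eKO against control, -0.60 (-0.69 to -0.50) for rLif against eKO and -0.39 (-0.49 to -0.29) for rLif against control. *Gata6* and *Gata4* therefore had ratios of opposite sign after rLif. On the scale per length, *Gata6* stood 1.93 times as high as *Gata4* in blastocysts of control females (1.82 to 2.04), 1.67 times in those of eKO females (1.58 to 1.76) and 3.86 times in those of rLif-treated females (3.64 to 4.09). These 3 intervals do not overlap, but they cover counting error only and not the spread between pools, which is unknown. The ratio of *Gata6* to the epiblast factor *Nanog*, chosen because the pair marks the choice between both inner lineages, was 0.643, 0.719 and 0.651 TPM per TPM, since *Nanog* had counts of 2281, 2094 and 3512.

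*Sox7*, a SoxF factor that marks maturing primitive endoderm, had 434, 323 and 113 counts, or 22.8, 16.5 and 5.81 CPM. The library from rLif-treated females was the low one. *Sox7* fell by 1.51 on the log2 scale from eKO to rLif-treated eKO (interval -1.83 to -1.19) and was 3.92-fold lower than in the control library (log2 ratio -1.97, -2.28 to -1.67). Against control, the eKO library gave -0.46 (-0.67 to -0.25), which was not called. *Sox7* was also abundant in the luminal layer, at 38.2, 22.7 and 33.0 TPM against 15.7, 11.5 and 3.99 TPM in blastocysts. The stroma marker sum moved in the same order (22.7, 14.9 and 10.5 TPM). The endothelium marker sum did not (46.4, 47.6 and 63.9 TPM), but it is nearly all *Pecam1*. Without *Pecam1* the endothelium sum was low and moved in the same order as *Sox7* (2.717, 1.596 and 0.867 TPM). Within it *Tek*, named here after its values were seen, did not follow that order (0, 9 and 7 counts). The part of maternal cells in the *Sox7* values was not tested.

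*Hnf4a*, a nuclear receptor that drives the epithelial program of visceral endoderm, was the steadiest factor, with 443, 401 and 422 counts. All 3 of its log2 ratios, -0.18, 0.08 and -0.10, had intervals that included 0. The intervals together ran from -0.38 to 0.28, inside the 2-fold limit.

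*Pdgfra*, the receptor for Pdgf A chains and an early surface marker of the lineage, had 123, 146 and 139.8 CPM. Its log2 ratios were 0.24 (0.16 to 0.32), -0.06 (-0.13 to 0.02) and 0.18 (0.10 to 0.26) for eKO against control, rLif against eKO and rLif against control. The 3 libraries differed by at most 1.19 times on the scale per length. *Pdgfa*, which encodes the ligand, had 2617, 1729 and 1698 counts and was not called, and neither were the other tested members of a list of 5 PDGF ligands and receptors, of which 4 were abundant enough to test.

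*Dab2*, a clathrin adaptor for receptors of the lipoprotein receptor family and for cubilin, was the most abundant member, at 448, 482 and 388 TPM. Its counts of 17546, 19192 and 15577 gave log2 ratios of 0.09, -0.29 and -0.20. With so many reads the intervals were narrow (-0.32 to -0.26 for rLif against eKO), and all lay within 2-fold.

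*Cubn* encodes cubilin, a large peripheral receptor for albumin, transferrin and vitamin B12 bound to intrinsic factor. It had 1587 counts in blastocysts of control females, 469 in those of eKO females and 337 in those of rLif-treated females (83.2, 24.0 and 17.3 CPM). The control library alone was high. *Cubn* was 3.47-fold lower in the eKO library than in control (log2 ratio -1.79, -1.95 to -1.65) and 4.80-fold lower in the rLif library (log2 ratio -2.26, -2.44 to -2.09). Between rLif and eKO the log2 ratio was -0.47 (-0.68 to -0.26), not called, so that the value after rLif lay further from control and not nearer to it.

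*Amn* encodes amnionless, the membrane protein that anchors cubilin and carries it to the cell surface. It followed *Cubn*, with 306, 96 and 57 counts (16.1, 4.91 and 2.93 CPM). *Amn* was 3.27-fold lower in the eKO library than in control (log2 ratio -1.71, -2.05 to -1.37) and 5.47-fold lower in the rLif library (-2.45, -2.89 to -2.04). Between rLif and eKO it gave -0.74 (-1.24 to -0.26), again not called.

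The level of *Cubn* per level of *Amn*, both in TPM, was 0.772 (0.682 to 0.875) in blastocysts of control females, 0.727 (0.582 to 0.915) in those of eKO females and 0.880 (0.663 to 1.19) in those of rLif-treated females. The 3 intervals overlap, so the pair could not be seen to part at this depth. Against *Gata6* of the same library, *Cubn* stood at 0.130, 0.0373 and 0.0176 and *Amn* at 0.168, 0.0513 and 0.0201 TPM per TPM, with no overlap of the intervals between groups for either gene. These intervals cover counting error only. From eKO to rLif, *Gata6* itself was higher (log2 ratio 0.61), and neither *Cubn* nor *Amn* was called. *Cubn* has 11325 exon bases and *Amn* 1685. For eKO against control, the median log2 ratio was 0.05 over genes of at least 8000 exon bases and -0.06 over genes under 2000 bases. Any gene called lower lies below these medians, and the part of exon length in the *Cubn* and *Amn* values was not tested. In the luminal libraries *Cubn* had 8, 20 and 6 counts and *Amn* 11, 4 and 10, which places *Cubn* at no more than 0.0954 TPM and *Amn* at no more than 0.453 TPM there. *Cubn* (chromosome 2, 13276338 to 13491876) shares exon positions with an antisense gene, *Gm13270*, and is uncertain to that extent. *Amn* (chromosome 12, 111271111 to 111276426, plus strand) shares none.

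*Sparc*, a collagen-binding matrix protein, had 5027, 5257 and 3278 counts, or 264, 269 and 169 CPM. The blastocysts from control and eKO females gave nearly equal values (log2 ratio 0.03, -0.03 to 0.08). The library from rLif-treated females was the low one, with log2 ratios of -0.67 (-0.74 to -0.61) against eKO and -0.64 (-0.71 to -0.58) against control, inside the 2-fold limit.

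**Figure D2:**
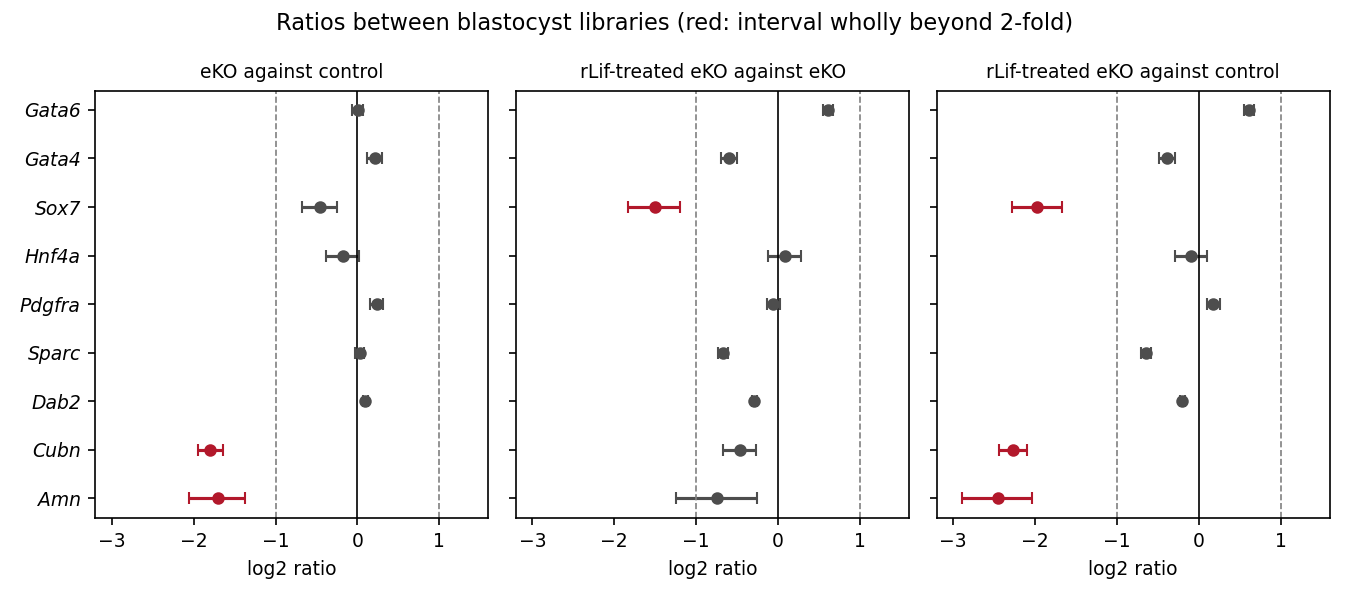
Log2 ratio (horizontal axes) of each of the 9 genes (rows) for 3 pairs of blastocyst libraries, with exact 95% intervals for counting error. Dashed lines mark 2-fold and red marks intervals wholly beyond it: *Cubn* and *Amn* for eKO against control, *Sox7* for rLif-treated eKO against eKO, and all 3 of these for rLif-treated eKO against control.

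Counted together, 2 of the 9 members were called lower for eKO against control, 1 of 9 for rLif-treated eKO against eKO and 3 of 9 for rLif-treated eKO against control. None was called higher. Over all 14873 genes tested, 3.15%, 3.75% and 4.94% were called in either direction in these comparisons, and 1.86%, 2.83% and 3.99% were called lower. With edgeR's exact test at an assumed dispersion of 0.1, which allows for spread between pools, 0 of the 9 were called in each comparison. At 0.04, a value added after seeing the data, the same 2, 1 and 3 members were called. The comparisons share libraries, so their counts are not independent of one another. Calls were rarer among genes as abundant as these: when genes were split by abundance into 3 classes of like size, the middle class held *Sox7*, *Hnf4a*, *Cubn* and *Amn*, and 0.827%, 1.35% and 2.48% of its genes were called lower. The most abundant class held the other 5 members, and 0.121%, 0.585% and 0.948% of its genes were called lower. All 9 members passed the minimum of 10 counts in blastocysts. The median log2 ratio of the members was 0.0023, -0.47 and -0.39, beside -0.0029, -0.0092 and -0.013 for all genes tested. In these bulk libraries fewer primitive endoderm cells and less RNA per cell cannot be told apart.

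**Figure D3:**
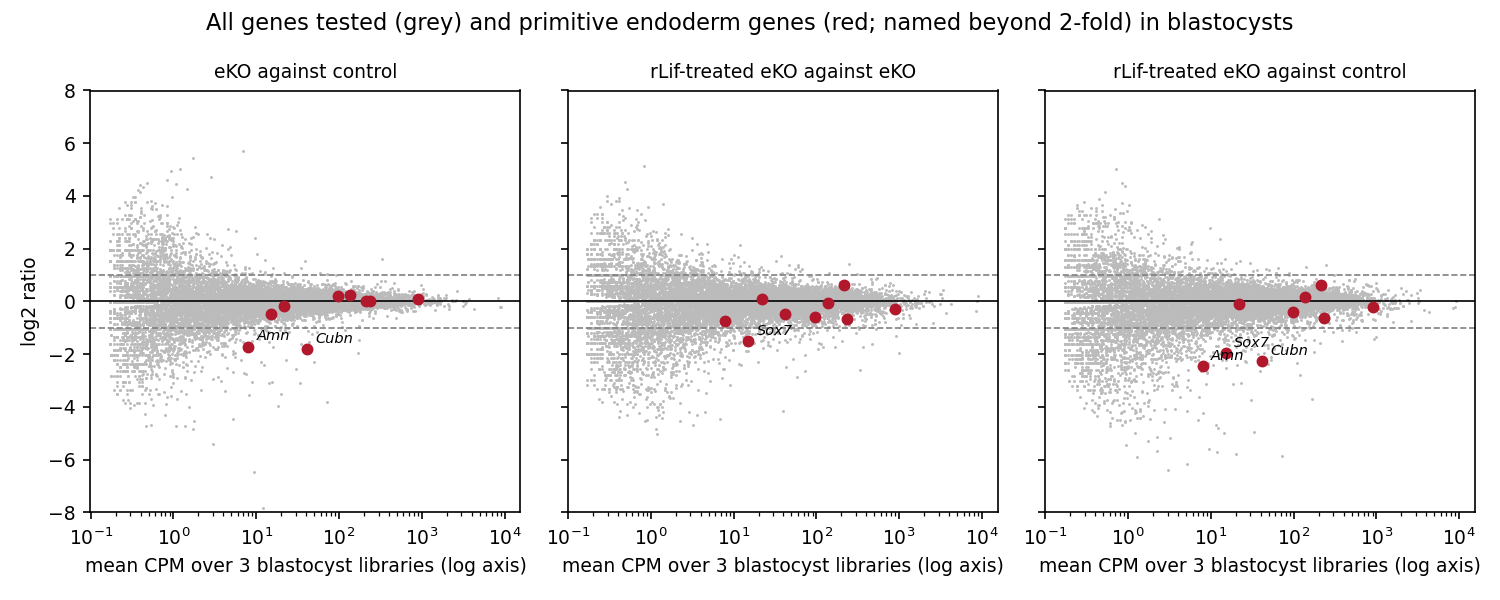
Log2 ratio (vertical axes) against the mean level over the 3 blastocyst libraries (horizontal axes, CPM, log axis) for all genes tested that had counts in both libraries (grey) and the 9 primitive endoderm genes (red, named where beyond 2-fold). The grey cloud narrows to the right, and *Cubn* and *Amn* lie at its lower edge, at -1.79 and -1.71 for eKO against control, while most members lie within it.

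Per length, the members ranked in the order *Dab2*, *Sparc*, *Gata6*, *Gata4*, *Pdgfra*, *Hnf4a*, *Amn*, *Sox7* and *Cubn* by their mean TPM over the 3 blastocyst libraries. The range of *Dab2* (388 to 482 TPM) lay above all others. The ranges of *Sparc* (164 to 266 TPM) and *Gata6* (128 to 194 TPM) overlapped, and *Gata6* passed *Sparc* in the rLif library. *Gata4* (50.4 to 77.4 TPM) lay above *Pdgfra* (41.2 to 49.1 TPM) in every library. The ranges of *Hnf4a* (10.7 to 12.0 TPM), *Amn* (3.90 to 21.4 TPM), *Sox7* (3.99 to 15.7 TPM) and *Cubn* (3.43 to 16.5 TPM) overlapped: in blastocysts of control females *Amn* was the highest of these 4 and *Hnf4a* the lowest, and in those of rLif-treated females *Hnf4a* was the highest. Summed over the 9 members, the level was 1006, 1038 and 866 TPM. The sum stood at 0.605, 0.598 and 0.438 of the summed TPM of 9 epiblast markers, and at 0.119, 0.114 and 0.101 of that of 10 trophectoderm markers. The sum is mostly *Dab2*, *Sparc* and *Gata6*, and it does not show the fall of *Cubn* and *Amn*.

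Other genes of the same lineage were read from lists. Among further transcription factors, *Foxa2*, a forkhead factor of visceral endoderm, had 103, 61 and 26 counts and fell in the rLif library against control (log2 ratio -2.01, -2.69 to -1.38). *Sox17*, which acts beside *Gata6* early in the lineage and is named here after its values were seen, had 2081, 2233 and 2531 counts and was not called. It was far more abundant in the luminal layer, at 601, 846 and 1154 TPM against 78.5, 83.0 and 93.2 TPM in blastocysts. The part of maternal cells in the *Sox17* values was not tested.

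The FGF and ERK list of 21 ligands, receptors, kinases and feedback genes had 0 calls in each comparison, with medians of 0.05, 0.06 and 0.05. *Fgfr2*, an FGF receptor, had 8444, 10864 and 7591 counts. *Dusp6*, a phosphatase induced by ERK activity, had 4924, 4300 and 3676 counts.

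The partners of cubilin in endocytosis showed 0 calls among 16 tested of 17, with medians of -0.02, 0.03 and 0.06. *Lrpap1*, a chaperone of the lipoprotein receptors, had 15684, 15931 and 20916 counts. *Lrp2* (megalin), the receptor that works with cubilin and is named here after its values were seen, had 3929, 3825 and 6016 counts. *Gif*, which encodes intrinsic factor, had 0 counts in all 3 blastocyst libraries.

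The basement membrane list of 15 laminins, collagens, nidogens, perlecan and collagen-modifying proteins had 0 calls for eKO against control and a median of 0.10. It had 1 call lower in each rLif comparison, and 14 of its 15 log2 ratios were below 0 in both, with medians of -0.63 against eKO and -0.64 against control. Over all 14873 genes tested, 2.83% and 3.99% were called lower in these comparisons, and 7499 and 7597 had log2 ratios below 0. *Lama1*, the laminin chain of early basement membranes, had 3274, 4250 and 1658 counts and fell from eKO to rLif (log2 ratio -1.35, -1.43 to -1.27). *Serpinh1*, the collagen chaperone Hsp47, had 11452, 10404 and 5530 counts and fell from control to rLif (-1.08, -1.12 to -1.03). *Sparc*, described above, had log2 ratios of like size in these comparisons. The 9 luminal epithelium markers also lay mostly below 0 there, 9 of 9 against eKO (median -0.68) and 8 of 9 against control (median -0.54), with 2 and 0 called lower. Their part in the basement membrane and *Sparc* values was not tested.

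Visceral endoderm secreted proteins were mostly near 0 at this stage: 9 of 13 passed the count minimum. Of the 9 tested, 1, 3 and 2 were called lower in the 3 comparisons in the order given and none higher, and the median was -0.04, -1.30 and -1.44, with genes at 0 counts set to a floor of 3 counts. In the rarest of the 3 abundance classes of all genes tested, 4.62%, 6.56% and 8.53% were called lower. *Ttr*, a thyroid hormone carrier, had 15 counts in blastocysts of control females and 0 in both others. *Apoa4*, an apolipoprotein, had 8, 16 and 0 counts. *Lefty1*, a Nodal antagonist, had 192, 135 and 46 counts and fell in the rLif library against both others (-2.09 against control, -2.59 to -1.62). *Trf*, transferrin, had 71, 120 and 30 counts and fell from eKO to rLif (-1.99, -2.62 to -1.40).

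Of 9 parietal endoderm genes, 2 were called lower for eKO against control, 1 for rLif against eKO and 3 for rLif against control, and none higher. Over all genes tested, 1.86%, 2.83% and 3.99% were called lower. The list summed to 301, 155 and 92.9 TPM in blastocysts, against 938 to 2835 TPM in the luminal libraries. The part of maternal cells in this list was not tested. All 9 log2 ratios were below 0 for rLif against control, and the medians were -0.34, -1.02 and -1.36. *Krt19*, a keratin that trophectoderm and uterine epithelium share, had 1401, 241 and 108 counts, with a log2 ratio of -2.58 (-2.78 to -2.38) for eKO against control and -3.73 (-4.02 to -3.44) for rLif against control. *Srgn*, a secretory granule proteoglycan, had 679, 477 and 185 counts and fell in the rLif library against both others. *Pth1r*, the receptor for parathyroid hormone-related protein, had 744, 602 and 295 counts and fell from control to rLif (-1.36, -1.56 to -1.17). *Vim*, vimentin, had 191, 72 and 100 counts and fell in the eKO library (-1.44, -1.86 to -1.05).

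The other lineages of the blastocyst were read the same way. Of 9 epiblast markers 0 were called in any comparison, with medians of 0.07, 0.17 and 0.25. *Pou5f1*, the pluripotency factor Oct4, had 5810, 6172 and 8033 counts. Of 10 trophectoderm markers, 1, 0 and 2 were called lower, beside 1.86%, 2.83% and 3.99% of all genes tested, and none higher. *Hand1*, a factor of trophoblast giant cells, had 253, 56 and 72 counts, and *Elf5*, a factor of trophoblast stem cells, had 1988, 1311 and 902. Of 8 stroma markers 7 were tested, and 4 (*Hoxa10*, *Hoxa11*, *Col3a1* and *Dcn*) were called lower for rLif against control. *Hoxa10* had 48, 17 and 6 counts, *Hoxa11* 24, 10 and 1, *Col3a1* 122, 60 and 28, and *Dcn* 164, 84 and 51. *Col1a1*, named here after its values were seen, had 38, 27 and 16 counts. *Cubn*, *Amn* and *Sox7* also show this order of groups. The rest of the list did not follow it: *Pdgfrb* had 204, 300 and 257 counts, *Lum* 34, 13 and 16, and *Hand2* 7, 0 and 2, these last 2 named after their values were seen. The part of stroma in the results on *Cubn*, *Amn* and *Sox7* was not tested. The level of *Cubn* in the blastocysts of control females (16.5 TPM) was above its level in every luminal library (0.0292 to 0.0954 TPM), and that of *Amn* (21.4 TPM) likewise (0.128 to 0.453 TPM). The luminal libraries were cut from the luminal layer, so they do not give the level of either gene in stroma alone.

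**Figure D4:**
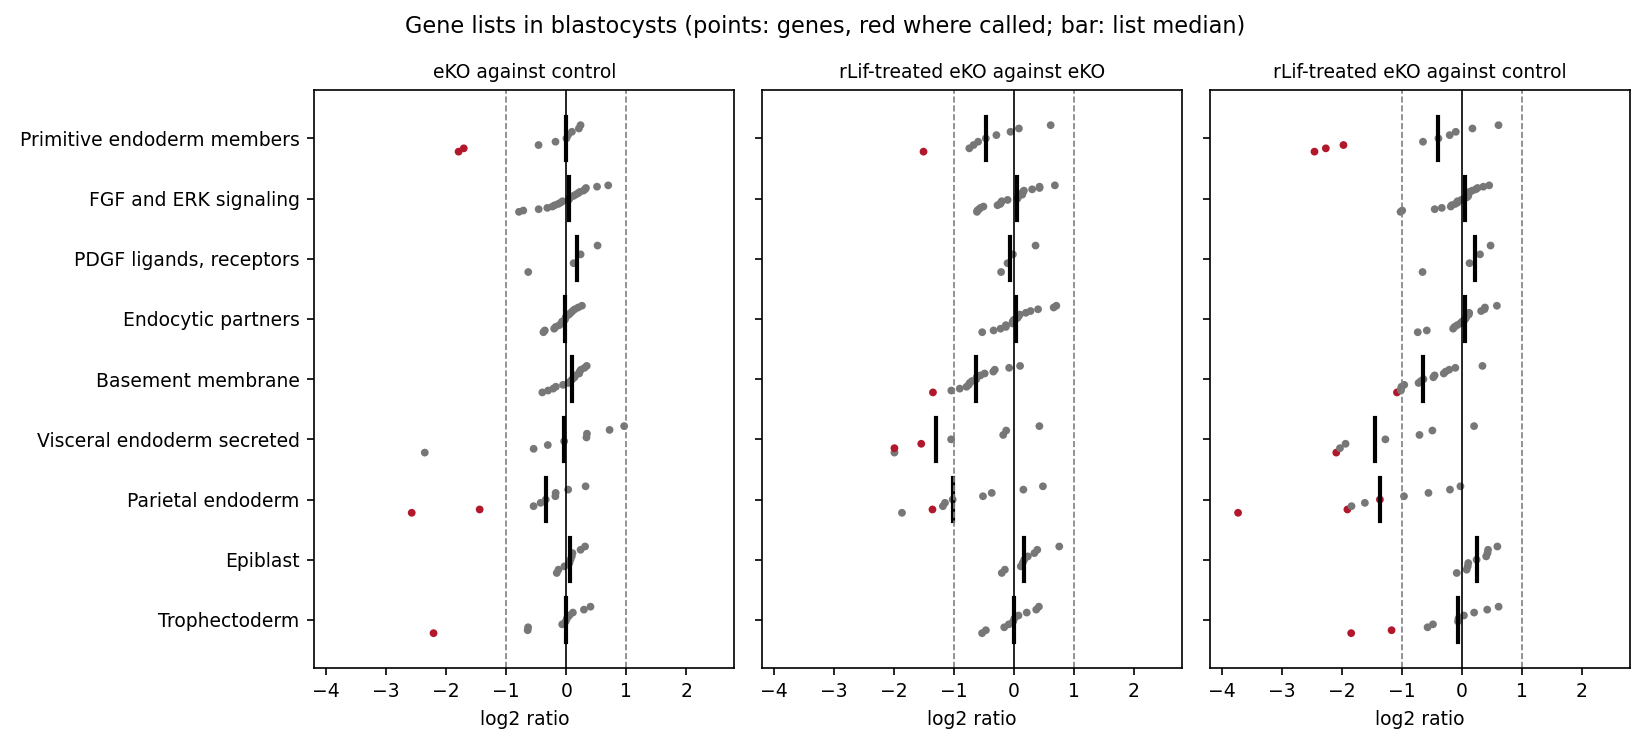
Log2 ratio (horizontal axes) of the genes of each list (rows, 1 point per gene tested with counts in both libraries) for 3 pairs of blastocyst libraries. Red points were called, and black bars are list medians, with genes at 0 counts set to the floor. The medians of the basement membrane, visceral endoderm and parietal endoderm lists lie left of 0 in both rLif panels, at -0.63, -1.30 and -1.02 against eKO.

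In the luminal layer, 7 of the 9 members passed the count minimum. *Gata4* had 0 counts in all 3 luminal libraries and *Hnf4a* had 0, 0 and 6, and neither was tested. No member was called in the 3 luminal comparisons, where 17.2%, 15.6% and 9.16% of 15694 genes were called for eKO against control, rLif against eKO and rLif against control. In the libraries so labelled, *Gata6* had 3 counts (control), 21 counts (eKO) and 3 counts (rLif-treated eKO). *Dab2* had 485, 356 and 694 counts, with a log2 ratio of 1.10 (0.92 to 1.29) for rLif against eKO, whose interval crossed the 2-fold limit. *Pdgfra* had 862, 1017 and 632 counts and *Sparc* 3873, 4539 and 2710, and the library labelled rLif-treated eKO was the low one for both.

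Between tissues, a member was called higher in blastocysts when its lowest TPM there was at least 2 times its highest luminal TPM. This held for 7 of the 9 members, beside 29.9% of 17081 genes, and 0 members were called lower in blastocysts, beside 15.6% of these genes. *Amn* stood 8.61 times and *Cubn* 35.9 times above the nearest luminal value even in the lowest blastocyst library, *Dab2* 46.9 times and *Pdgfra* 4.65 times. *Sparc* was higher in blastocysts by 1.41 times at the nearest values and was not called. *Sox7* was the only member with the opposite order, since its highest blastocyst value lay 1.45 times below its lowest luminal value. The tissues were collected by different means, so tissue and collection cannot be told apart.

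**Figure D5:**
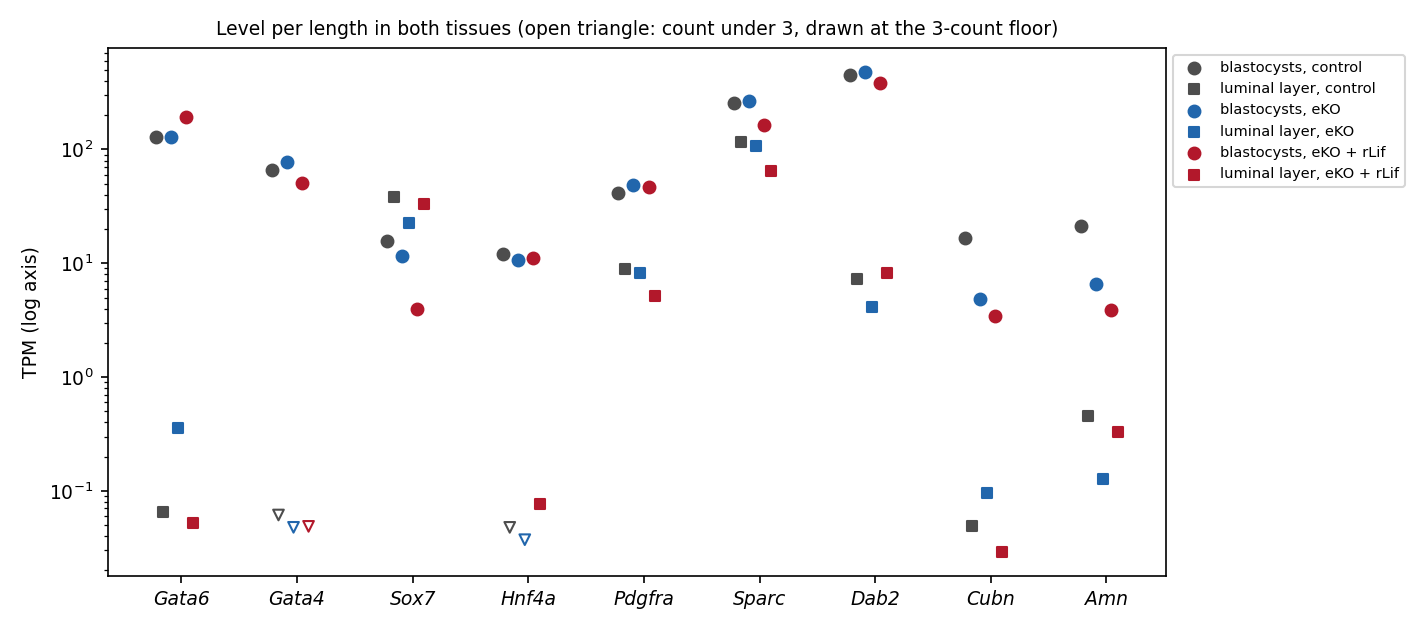
Level per length (vertical axis, TPM, log axis) of the 9 genes in 3 blastocyst libraries (circles) and 3 luminal libraries (squares), coloured by group as labelled. Open triangles mark luminal counts under 3, drawn at the level of 3 counts. Circles lie above squares for every gene except *Sox7*, where the luminal squares (22.7 to 38.2 TPM) lie above the circles.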

How the data were processed

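RNA-seq was available for 6 libraries, 1 per group, grouped by the sample labels. The authors made SMART-seq v4 libraries, aligned reads to GRCm38/mm10 with HISAT2 and counted them per gene with featureCounts. Subread 2.0.0 is named in the submitters' processing notes. The 2 deposited tables hold read counts as whole numbers, not normalized, with exon lengths, although the methods call the output RPKM. The annotation release and the strand and multimapping settings are not given in the sources used here, and they could move counts of overlapping genes. No column was left unmapped (0).

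Within each tissue, TMM factors from edgeR 4.0.16 (R 4.3.3) scaled the libraries. Genes with at least 10 counts over the 3 libraries were tested. TPM used the deposited exon lengths. Ratios carry exact Clopper-Pearson 95% intervals and levels exact Poisson intervals (scipy 1.17.1). Both cover counting error only, since PCR reads without molecular identifiers are not independent molecules. A gene was called when its interval lay beyond a log2 ratio of 1. The fold limit follows the study, whose methods name edgeR without giving a dispersion. Since 1 library per group gives none, edgeR's exact test ran only as an alternative, with an assumed dispersion of 0.1 or 0.04. The interval rule was tested on simulated counts without spread between pools, which cannot show calls due to such spread. It recovered 100% of 8-fold increases. In a simulation with a dispersion of 0.1, edgeR's exact test recovered 78% of 8-fold increases for blastocysts and 77% for the luminal layer. Neither simulation held falls or changes of other sizes, so recovery of smaller falls like those of *Cubn*, *Amn* and *Sox7* was not tested.

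The members, the 14 gene lists and the rules were chosen with earlier results of these data known. Named were all members, *Lif*, and from each list up to 4 called genes with the largest change in blastocysts, or else the 2 most abundant. Other names are said to be chosen after their values were seen, apart from *Krt7*, *Pecam1*, *Emcn* and *Ltf*, which describe their marker lists, and *Nanog* and *Gif*. Results for some listed genes are not reported here. Promoters came from RefSeq, and gene overlaps and transcripts from GENCODE M21, all on the same build. Alternatives were other scalings, other count minimums, a limit of 1.5-fold and edgeR's exact test.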

Additional observations from a re-analysis of the deposited data

How the results depend on the processing

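The calls of *Cubn*, *Amn* and *Sox7* in blastocysts kept their number (2, 1 and 3 members for eKO against control, rLif against eKO and rLif against control) with total counts, with median-of-ratios size factors, with no count minimum and with a minimum of 50 counts. With edgeR's exact test and an assumed dispersion of 0.1, 0 members were called in each of these comparisons. At a dispersion of 0.04, chosen after seeing the data, the same members were called as by the intervals: *Cubn* and *Amn*, then *Sox7*, then all 3 of them. The spread between pools of blastocysts of 1 group, which would set the dispersion, is unknown. With a limit of 1.5-fold, 2 members were called for rLif against eKO in blastocysts. In the luminal layer that limit called 1 member for eKO against control and 2 for rLif against eKO, total counts called 1 (*Gata6*) for rLif against eKO, and the lower dispersion called 1 (*Gata6*) for eKO against control and 1 (*Gata6*) for rLif against eKO.

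The number of all genes called in the 3 blastocyst comparisons was 468, 557 and 734. It was 209, 325 and 447 with a minimum of 50 counts, 916, 1229 and 1414 with a limit of 1.5-fold, and 65, 58 and 124 with edgeR's exact test at a dispersion of 0.1. At 0.04 it was 291, 378 and 579. In the luminal layer it was 2704, 2456 and 1438, against 5002, 4298 and 3124 with a limit of 1.5-fold and 1250, 1109 and 342 with edgeR's exact test at a dispersion of 0.1. Scaling by total counts moved log2 ratios by up to 0.012 in blastocysts and 0.18 in the luminal layer, and it changed the sign of 4 ratios that were not called: *Gata6* in blastocysts (eKO against control, -0.0097) and, in the luminal layer, *Pdgfra* (eKO against control, -0.016), *Sparc* (eKO against control, -0.03) and *Sox7* (rLif against control, -0.10). Without the most abundant gene of each list, the member sum stood at 0.514, 0.494 and 0.334 of the epiblast sum and at 0.103, 0.0958 and 0.0842 of the trophectoderm sum. No paired analysis was possible because each group is 1 library, and no replicate could be left out.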
